A study of Mus musculus with 22 samples.

Results

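Ddx58, Ifih1, Dhx58, Irf7, Irf9, Irf1, Stat2, Trim30a and Trim30d are the 9 genes described here: cytosolic sensors of RNA, transcription factors of the interferon response, and a pair of Trim30 genes. They were chosen by symbol, with earlier results of these data known. Each was represented by the probe set of highest mean over the arrays among those annotated to its symbol alone. This gave 9 of the 18193 genes measured. The tissue was terminal ileum from NOD mice, which are inbred and prone to autoimmune diabetes, and its RNA was hybridised to 22 Affymetrix arrays of 1 colour. The PAT groups, mice given antibiotics as therapeutic doses in pulses, held 3 female and 5 male arrays. The STAT groups, mice given antibiotics at a sub-therapeutic level, held 3 female and 3 male arrays, and the control groups held 3 female and 5 male arrays. All groups share the NOD background, and neither drug, dose nor age is given in the sources used here. The labels do not state whether each sample was a different animal, so the p-values speak only of the spread among samples, some of which may be technical.

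Ddx58 encodes RIG-I and Ifih1 encodes MDA5, helicases that bind viral RNA in the cytosol and signal through the adaptor Mavs, while Dhx58 encodes LGP2, a related helicase that tunes them. Interferon made in response binds receptors on the same and neighbouring cells, and Stat2 and Irf9 are parts of the complex that then carries the signal to the nucleus. Irf7 amplifies the type I interferon response, Irf1 is induced by interferon gamma and sustains basal antiviral gene expression in epithelium, and the Trim30 genes belong to a family of ubiquitin ligases, many of them interferon-induced.

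All values are log2 expression levels, so a difference of 1 is a 2-fold change, and levels of different genes cannot be set against each other because each probe set binds its target differently. Differences are PAT or STAT minus control unless another order is named, and errors beside them are standard errors. A gene was called where limma's adjusted p, over all genes, was under 0.05. Column medians lay between 5.68 and 5.79, and correlations between arrays ran from 0.984 to 0.997. The 7 ileal enterocyte markers were all bright, with mean log2 levels of 14.29 for Fabp6, 12.73 for Vil1 and 11.31 for Cdx2, and the 3 cardiac markers had means between 3.48 and 4.15. Of the 3 hepatocyte markers, listed as another tissue that should be absent, 2 were bright: Cyp2e1 at a mean of 8.69, ranging from 5.43 to 12.29 over the arrays, and Ttr at 7.42. The third, Alb, was dim, at a mean of 5.34, ranging from 4.44 to 7.64. The summed hepatocyte level ranged from 8.11 to 11.74 in PAT females, 8.1 to 11.29 in PAT males, 8.4 to 10.88 in STAT females, 8.42 to 11.44 in STAT males, 8.16 to 10.45 in control females and 7.8 to 12.34 in control males, and none of the 3 was called in PAT. STAT males 2 and 3 stood apart in the actin measure of RNA integrity, with 3-prime minus 5-prime log2 differences of 0.59 and 0.6 against 0.28 to 0.42 on the other arrays. PAT female 1 stood apart in its B cell markers, with a summed log2 level of 9.85 against 6.51 to 6.94 on the other arrays.

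In PAT mice, 6 of the 9 genes were lower than in controls when the sexes were averaged: Irf1, Trim30d, Irf9, Ddx58, Stat2 and Ifih1. None was higher. Over all genes tested, 6.38% were called lower in this comparison and 4.61% higher. Because the genes were chosen with earlier results known, setting their counts beside these shares describes them and is no test. The falls ranged from 1.16-fold for Ifih1 to 2.7-fold for Trim30d, and the median difference over the 9 genes was -0.472, against -0.005 over all genes. In bulk tissue, fewer cells of a type and less RNA per cell cannot be told apart. In STAT mice all 9 genes had averaged differences below 0, but none was called, and 0% of all genes were called in either direction.

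**Figure D1:**
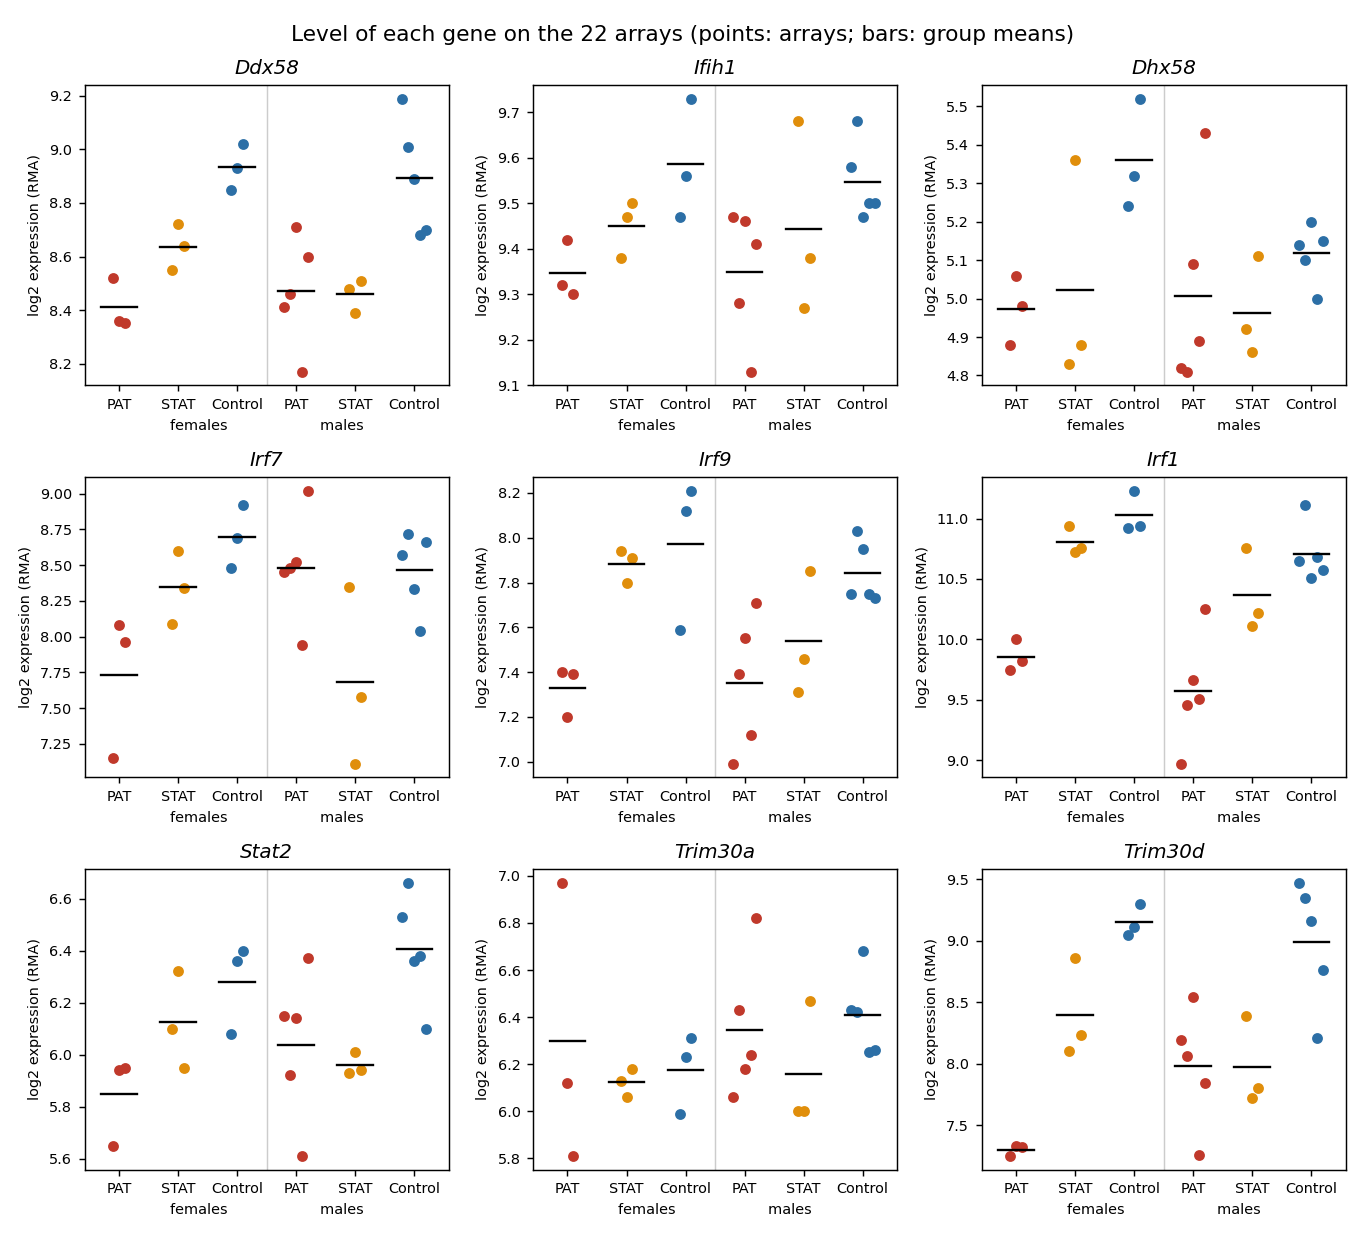
Log2 expression level of each of the 9 genes on every array, by treatment and sex, with 1 point per array and the group mean as a bar. Irf1 lies lowest in the PAT groups of both sexes, Trim30d lies lowest in PAT females, and the groups of Trim30a overlap within each sex.

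Among the sensors, Ddx58 (chr4:40203777-40239825, GRCm38.p6) was at log2 levels of 8.52, 8.36 and 8.35 in PAT females, 8.55, 8.72 and 8.64 in STAT females, and 8.85, 8.93 and 9.02 in control females. Every PAT and every STAT female array lay below every control female array. In males it was at 8.41, 8.46, 8.71, 8.17 and 8.60 in PAT, 8.48, 8.39 and 8.51 in STAT, and 9.19, 9.01, 8.89, 8.68 and 8.70 in controls. The STAT males lay below all control males, while PAT male 3 overlapped the 2 lowest controls. The fall in PAT was 0.47 ± 0.08 on the log2 scale averaged over the sexes (adjusted p = 0.00084), with differences of -0.53 ± 0.13 in females (adjusted p = 0.031) and -0.42 ± 0.10 in males (adjusted p = 0.012). The female call was lost without any 1 of the 6 arrays compared, with adjusted p between 0.057 and 0.13. It was also lost with the Gapdh measure of RNA integrity as a covariate (-0.55, adjusted p = 0.066), the 3-prime minus 5-prime measure being -0.03, -0.08 and -0.11 in PAT females against -0.17, -0.2 and -0.09 in control females. The measure in males was -0.23, -0.15, -0.19, -0.13 and -0.08 in PAT against -0.2, -0.26, -0.2, -0.26 and -0.26 in controls. Over all genes, the covariate left 756 called in PAT averaged over the sexes, where 1160 lower and 839 higher were called without it. The female call of Ddx58 was lost too with the mean of the gene's probe sets (-0.26, adjusted p = 0.1), and the male call was lost in a fit of only the groups compared (adjusted p = 0.058). In STAT the averaged difference was -0.36 ± 0.09, with a 95% interval from -0.54 to -0.18 and an adjusted p of 0.2.

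The promoters of Ddx58 and Irf1 are shown as an example of each of 2 motifs of the pathway. The windows are RefSeq sequences of 300 bases on the gene's strand (GRCm38.p6, the C57BL/6J reference and not NOD), with 250 bases before the start site. Capitals mark GAAANNGAA, a motif bound by interferon regulatory factors, on either strand, which 8.56% of 32851 promoters hold, or TTCNNNGAA, a motif bound by STAT dimers, which 8.3% hold. Ddx58 is at chr4:40239776-40240075 on the minus strand, and its match, TTCGATTTC, lies on the opposite strand and begins at position 4 from the start site. Irf1 is shown at the first of its 2 annotated start sites, chr11:53769764-53770063 on the plus strand, and its match, TTCCCCGAA, begins at position -90.
Ddx58: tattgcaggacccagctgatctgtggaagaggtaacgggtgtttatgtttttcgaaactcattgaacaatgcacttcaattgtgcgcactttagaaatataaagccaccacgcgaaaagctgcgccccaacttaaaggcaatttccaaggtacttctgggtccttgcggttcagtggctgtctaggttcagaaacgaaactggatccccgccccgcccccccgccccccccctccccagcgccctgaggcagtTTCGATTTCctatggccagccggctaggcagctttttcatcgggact
Irf1: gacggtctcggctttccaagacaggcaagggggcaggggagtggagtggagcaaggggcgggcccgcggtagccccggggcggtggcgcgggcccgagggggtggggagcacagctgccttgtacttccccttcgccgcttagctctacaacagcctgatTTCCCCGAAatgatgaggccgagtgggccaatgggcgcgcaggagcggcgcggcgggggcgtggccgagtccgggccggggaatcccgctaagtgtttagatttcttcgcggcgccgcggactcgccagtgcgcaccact
RefSeq windows matched 8 of the 9 genes. Ifih1 held the first motif at positions -112 and 33 and Stat2 at position -221, and the windows of Irf7 and Irf9 and of the second start site of Irf1 held neither motif. A match describes the letters only, and no binding was measured here.

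Ifih1 (chr2:62595618-62646255) was at 9.32, 9.42 and 9.30 in PAT females, 9.38, 9.47 and 9.5 in STAT females, and 9.47, 9.56 and 9.73 in control females. PAT females lay below control females without overlap, and STAT females overlapped them. In males the log2 levels of Ifih1 were 9.47, 9.28, 9.46, 9.13 and 9.41 in PAT, 9.68, 9.27 and 9.38 in STAT, and 9.58, 9.68, 9.47, 9.5 and 9.5 in controls. STAT male 1 stood level with the highest control male. The averaged PAT difference, -0.22 ± 0.07, was the smallest of the called ones (adjusted p = 0.041) and stayed called in 7 of 16 fits that left out 1 array. It was lost without PAT female 1, 2 or 3, PAT male 2 or 4, control female 2 or 3, or control male 1 or 2, at adjusted p up to 0.13. With the Gapdh covariate it was -0.14 (adjusted p = 0.4), and with columns centred on their medians the adjusted p was 0.064. Neither sex alone was called, and the STAT difference was -0.12 ± 0.07 (adjusted p = 0.48).

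Dhx58 (chr11:100694884-100704271), with a mean log2 level of 5.07, was the dimmest probe set of the 9, and fold changes of dim probe sets are understated. It was at 4.88, 5.06 and 4.98 in PAT females, 4.83, 5.36 and 4.88 in STAT females, and 5.24, 5.32 and 5.52 in control females. In males it was at 4.82, 4.81, 5.09, 4.89 and 5.43 in PAT, 4.92, 4.86 and 5.11 in STAT, and 5.14, 5.10, 5.2, 5.00 and 5.15 in controls. PAT females lay below control females, while the male groups overlapped. The averaged differences were -0.25 ± 0.09 in PAT (adjusted p = 0.087) and -0.25 ± 0.10 in STAT (adjusted p = 0.3). Without PAT male 5, the highest of the PAT males, the PAT difference was -0.3 (adjusted p = 0.018).

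Irf1 (chr11:53770014-53778374), the interferon gamma-induced factor, was the member with the smallest adjusted p. It was at 9.75, 10 and 9.82 in PAT females, 10.94, 10.72 and 10.76 in STAT females, and 10.92, 11.23 and 10.94 in control females. Its male levels were 8.97, 9.46, 9.66, 9.51 and 10.25 in PAT, 10.76, 10.11 and 10.22 in STAT, and 10.65, 11.11, 10.51, 10.68 and 10.57 in controls. PAT arrays lay below control arrays without overlap in both sexes, and PAT females also lay below STAT females. The averaged PAT difference was -1.16 ± 0.14, a 2.23-fold fall (adjusted p = 3.1e-05), with -1.17 ± 0.22 in females (adjusted p = 0.0092) and -1.14 ± 0.17 in males (adjusted p = 0.00044). Without control female 2 the female call was missed at an adjusted p of 0.051. The STAT difference was -0.28 ± 0.15, with a 95% interval from -0.59 to 0.03 (adjusted p = 0.42).

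Irf9 (chr14:55603985-55610030), the DNA-binding part of the complex with Stat2, was at 7.40, 7.20 and 7.39 in PAT females, 7.94, 7.80 and 7.91 in STAT females, and 7.59, 8.12 and 8.21 in control females. In males it was at 6.99, 7.39, 7.55, 7.12 and 7.71 in PAT, 7.31, 7.46 and 7.85 in STAT, and 7.75, 8.03, 7.95, 7.75 and 7.73 in controls. PAT arrays lay below controls in both sexes, by a narrow margin in males, and STAT arrays overlapped controls in both. The averaged PAT difference was -0.57 ± 0.11 (adjusted p = 0.0023), with -0.64 ± 0.17 in females (adjusted p = 0.045) and -0.49 ± 0.14 in males (adjusted p = 0.026). Leaving out 1 array at a time kept the averaged call in 16 of 16 fits, the female call in 1 of 6 and the male call in 5 of 10. The arrays whose removal ended the male call were PAT males 1, 2 and 4 and control males 2 and 3. The female call was lost in a fit of only the groups compared (adjusted p = 0.078) and with every probe set tested (0.051), and the male call with quantile normalization repeated (-0.41, adjusted p = 0.09). The STAT difference was -0.19 ± 0.12 (adjusted p = 0.49).

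Irf7 (chr7:141263183-141266499) was at 7.15, 8.08 and 7.96 in PAT females, 8.09, 8.60 and 8.34 in STAT females, and 8.48, 8.69 and 8.92 in control females. Its male levels were 8.45, 8.48, 8.52, 7.94 and 9.02 in PAT, 8.35, 7.11 and 7.58 in STAT, and 8.57, 8.72, 8.33, 8.04 and 8.66 in controls. PAT females lay below both other female groups, whereas PAT males spanned the control males. The PAT difference was -0.96 ± 0.28 in females (adjusted p = 0.061) and 0.02 ± 0.22 in males (adjusted p = 0.97), and the female minus male difference of these effects was -0.98 ± 0.36 (adjusted p = 0.17). The female difference was called without STAT males 2 and 3 in the fit (adjusted p = 0.036), among genes of mean at least 6 (0.048) and with array weights (-0.8, adjusted p = 0.041). Over all genes, 0.00550% were called in that comparison of effects, and none of the 9 was. In STAT males Irf7 was lowest in STAT males 2 and 3, the arrays with the high actin measure. Its STAT male difference was -0.78 ± 0.25 (adjusted p = 0.15), and -0.11 with those 2 arrays left out, which leaves 1 STAT male assumed to vary like the other groups. The part of RNA integrity in it was not tested.

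Stat2 (chr10:128270498-128292853) is the partner of Irf9 in the complex that carries the signal to the nucleus. It was at 5.65, 5.94 and 5.95 in PAT females, 6.10, 6.32 and 5.95 in STAT females, and 6.08, 6.36 and 6.40 in control females. In males it was at 6.15, 5.92, 6.14, 5.61 and 6.37 in PAT, 5.93, 6.01 and 5.94 in STAT, and 6.53, 6.66, 6.36, 6.38 and 6.10 in controls. PAT females lay below control females and STAT males below control males, while PAT males overlapped controls. The averaged PAT difference was -0.40 ± 0.10 (adjusted p = 0.014), called in 15 of 16 fits with 1 array left out and missed, at an adjusted p of 0.05, without PAT female 1. Neither sex alone was called, though the male difference was called without PAT male 5 (-0.45, adjusted p = 0.032) or control male 5 (-0.44, adjusted p = 0.032). With the Gapdh covariate the adjusted p was 0.08. In STAT it was -0.30 ± 0.11 averaged over the sexes (adjusted p = 0.27) and -0.45 ± 0.14 in males (adjusted p = 0.15).

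Trim30d and Trim30a lie next to each other on chromosome 7, at chr7:104470014-104507853 and chr7:104409025-104465193. Their promoters are shown because they are alike in sequence while the levels of the genes were not alike across the arrays. Trim30d is at chr7:104507800-104508099 and the second annotated start site of Trim30a at chr7:104465144-104465443, both on the minus strand. With a shift of 5 bases, 276 of 295 aligned bases are identical (93.6%), and each holds the motif GAAANNGAA on the opposite strand, in capitals, beginning at position -40 in Trim30d and at position -35 in Trim30a.
Trim30d: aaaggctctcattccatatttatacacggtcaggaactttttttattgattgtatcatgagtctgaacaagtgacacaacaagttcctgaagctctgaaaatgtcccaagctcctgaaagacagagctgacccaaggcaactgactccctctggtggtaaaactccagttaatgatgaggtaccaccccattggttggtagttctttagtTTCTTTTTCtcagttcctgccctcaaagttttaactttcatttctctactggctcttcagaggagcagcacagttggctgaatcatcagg
Trim30a: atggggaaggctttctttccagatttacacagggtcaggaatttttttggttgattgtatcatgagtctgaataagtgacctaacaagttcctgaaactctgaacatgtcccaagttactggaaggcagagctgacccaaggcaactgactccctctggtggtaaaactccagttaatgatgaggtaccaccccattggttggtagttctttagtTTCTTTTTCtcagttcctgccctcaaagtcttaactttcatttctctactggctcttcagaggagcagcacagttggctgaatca
Both alignments were made without gaps, so an inserted or deleted base lowers the count. On this measure the first annotated start site of Trim30a had 133 of 256 aligned bases identical to Trim30d (52.0%). Its window also holds the motif GAAANNGAA on the opposite strand, beginning at position 4.

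Trim30d had the largest difference of the 9 genes in PAT mice. It was at 7.25, 7.33 and 7.32 in PAT females, 8.10, 8.86 and 8.23 in STAT females, and 9.05, 9.11 and 9.30 in control females. Its male levels were 8.19, 8.06, 8.54, 7.26 and 7.84 in PAT, 8.39, 7.72 and 7.80 in STAT, and 9.47, 9.35, 9.16, 8.21 and 8.76 in controls. The female groups did not overlap at all, with PAT lowest and controls highest, whereas control male 4 lay within the range of the treated males. The fall in PAT was 1.43 ± 0.19 on the log2 scale averaged over the sexes, 2.7-fold (adjusted p = 5.6e-05), with differences of -1.86 ± 0.29 in females (3.62-fold, adjusted p = 0.0026) and -1.01 ± 0.23 in males (2.01-fold, adjusted p = 0.0094). All 3 calls held with any 1 array left out. The female minus male difference of the effects was -0.85 ± 0.37 (adjusted p = 0.23). With the Gapdh covariate the male call was lost (-0.84, adjusted p = 0.055). The STAT difference was -0.89 ± 0.20 averaged over the sexes, with a 95% interval from -1.3 to -0.48 (adjusted p = 0.19). It was -0.76 in females and -1.02 ± 0.26 in males (adjusted p = 0.11), and -0.6 in males without STAT males 2 and 3.

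The group means of Irf1 and Trim30d were ordered differently. Irf1 averaged 9.57 ± 0.46 in PAT males, 9.86 ± 0.13 in PAT females, 10.36 ± 0.35 in STAT males, 10.7 ± 0.23 in control males, 10.81 ± 0.12 in STAT females and 11.03 ± 0.18 in control females (SD, n = 5, 3, 3, 5, 3 and 3). Neighbours in that order overlapped except PAT females and STAT males. Trim30d averaged 7.3 ± 0.05 in PAT females, 7.97 ± 0.37 in STAT males, 7.98 ± 0.48 in PAT males, 8.4 ± 0.41 in STAT females, 8.99 ± 0.51 in control males and 9.16 ± 0.13 in control females. Only PAT females and STAT males were neighbours that did not overlap.

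Trim30a was at 6.97, 6.12 and 5.81 in PAT females, 6.13, 6.06 and 6.18 in STAT females, and 5.99, 6.23 and 6.31 in control females. In males it was at 6.06, 6.43, 6.18, 6.24 and 6.82 in PAT, 6, 6 and 6.47 in STAT, and 6.43, 6.42, 6.68, 6.25 and 6.26 in controls. Within each sex the groups overlapped, while STAT females lay below control males, and the highest array was PAT female 1, the one with the high B cell markers. The averaged PAT difference was 0.03 ± 0.14 (adjusted p = 0.93), and -0.14 without PAT female 1. The part of B cell RNA in that array's level was not tested.

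Several members had more than 1 probe set, each tested over all probe sets. The differences that follow are averaged over the sexes unless a sex is named. A second Trim30d probe set fell by 0.88 ± 0.16 in PAT averaged over the sexes (adjusted p = 0.0016). It was called in females (-1.22 ± 0.25, adjusted p = 0.02) but not in males (-0.54 ± 0.19, adjusted p = 0.096). A probe set annotated to both Trim30 genes fell by 0.48 ± 0.11 (adjusted p = 0.0093). Both were dim, at mean log2 levels of 5.64 and 5.01. They are annotated to the same source sequence, so they are not independent, and the shared one cannot tell the 2 genes apart. The second Trim30a probe set, with a mean log2 level of 4.97, had an averaged difference of 0 ± 0.20. The second Ddx58 probe set fell by 0.35 ± 0.10 (adjusted p = 0.028), and the third, at a mean of 4.81, was at -0.02. That second probe set was called in males (-0.48 ± 0.12, adjusted p = 0.019) but not in females (-0.22 ± 0.15, adjusted p = 0.48). The second Stat2 probe set was at -0.23 ± 0.10 (adjusted p = 0.14). The other Dhx58 probe sets, at means of 4.25 and 3.88, were at -0.03 and 0.02.

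**Figure D2:**
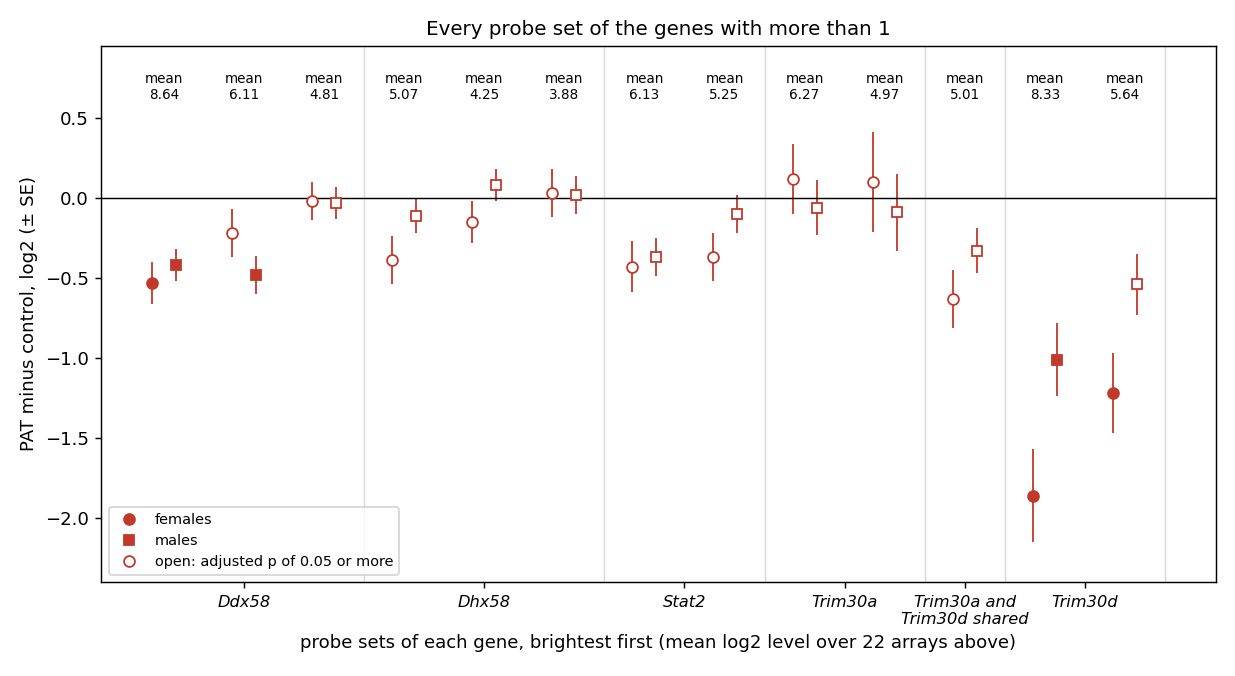
Log2 difference, PAT minus control, in females (circles) and males (squares) for every probe set of the members that had more than 1, with standard errors and open symbols where the adjusted p was 0.05 or more. Both Trim30d probe sets lie below 0 in both sexes, and the error bars of both Trim30a probe sets cross 0.

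Within the sexes, 4 of the 9 genes were called lower in PAT females (Ddx58, Irf9, Irf1 and Trim30d), against 1.08% of all genes, and 4 in PAT males (again Ddx58, Irf9, Irf1 and Trim30d), against 6.68%. In PAT females, 8 of the 9 lay below the control females on every array, all but Trim30a, where 13.2% of all genes did. In PAT males 2 of the 9 did so, Irf9 and Irf1, where 5.29% of all genes did. No member was called between control females and control males, where 5 of all 18193 genes were called higher and 5 lower.

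**Figure D3:**
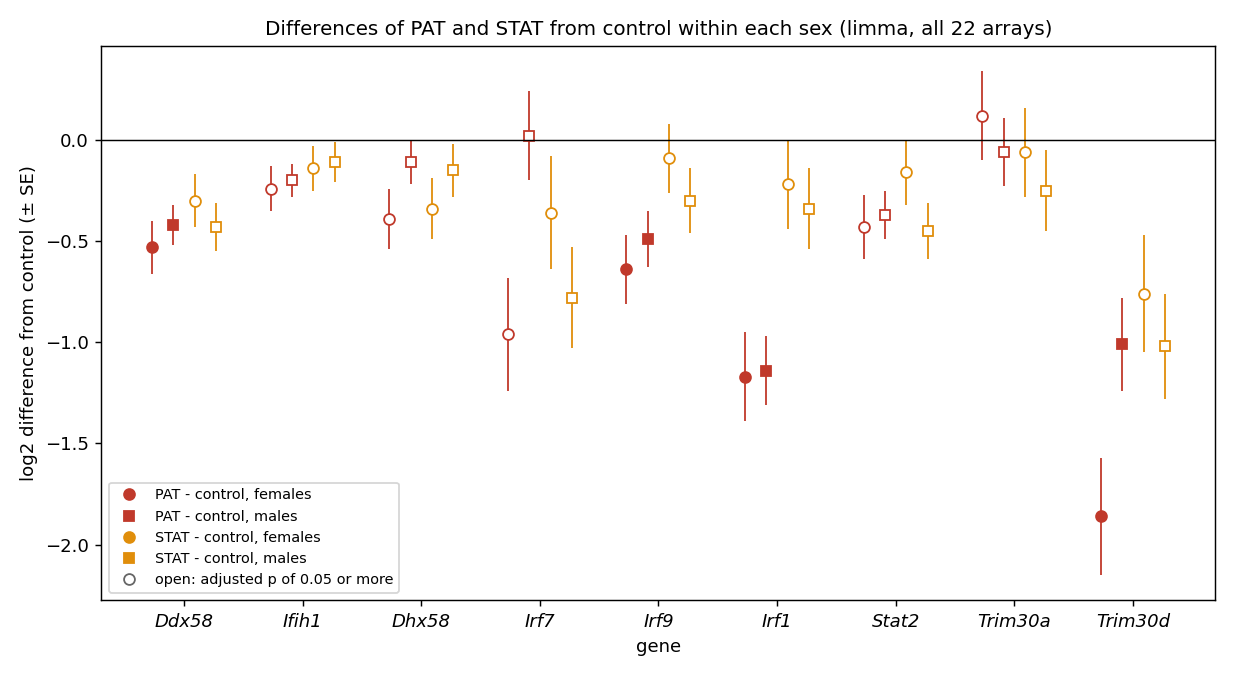
Log2 difference from controls of each of the 9 genes in PAT and STAT, in females (circles) and males (squares), with standard errors and open symbols where the adjusted p was 0.05 or more. The PAT differences of Irf1 and Trim30d lie at -1.01 or below in both sexes, and no STAT symbol is filled.

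The STAT comparison uses the same control arrays as the PAT comparison, so the 2 are not independent. Averaged over the sexes, 5 of the 9 genes were lower in STAT at an unadjusted p under 0.05 (Ddx58, Dhx58, Irf7, Stat2 and Trim30d), against 7.08% of all genes, and limma's adjusted p called none. The median difference was -0.284, against -0.004 over all genes. In STAT females 0% of all genes were called, and 2 members, Ddx58 and Trim30d, lay below control females on every array, as 5.10% of all genes did. In STAT males 0% were called, and Ddx58 and Stat2 lay below control males on every array, as 3.64% of all genes did. The STAT male results moved with single arrays. Without STAT male 1 the averaged STAT comparison called Ddx58 (-0.37, adjusted p = 0.028), Irf7 (-0.74, adjusted p = 0.023) and Trim30d (-1.0, adjusted p = 0.012), and in that fit 1053 of the 18193 genes were called, against 0 with all arrays. Without STAT males 2 and 3 it called none of the 9.

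PAT was also compared directly with STAT. In females 1 of the 9 genes was called, Irf1, lower in PAT by 0.95 ± 0.22 on the log2 scale (adjusted p = 0.045), against 0.335% of all genes called lower. It was not called with any of the 6 arrays left out, at adjusted p between 0.075 and 0.15. Of the 9 genes, 6 lay lower on every PAT female than on every STAT female array (Ddx58, Irf7, Irf9, Irf1, Stat2 and Trim30d), as 11.2% of all genes did. Trim30d was at -1.10 ± 0.29, with a 95% interval from -1.71 to -0.49 (adjusted p = 0.072). In males Irf1 alone was called, at -0.79 ± 0.20 (adjusted p = 0.019), against 5.24% of all genes called lower. That call was lost without STAT male 1 (-0.60, adjusted p = 0.063), without STAT male 3 (-0.86, adjusted p = 0.062) and without STAT males 2 and 3 together (-1.19, adjusted p = 0.091), and in a fit of only the groups compared (adjusted p = 0.13). Trim30d did not differ detectably between PAT and STAT males, at 0.01 ± 0.26 with a 95% interval from -0.53 to 0.56, and at -0.41 without STAT males 2 and 3 (adjusted p = 0.77). Irf7 was at 0.80 ± 0.25, the only member with a difference above 0.5 in that comparison (adjusted p = 0.052). It was called without PAT male 4 (0.94, adjusted p = 0.022) and without STAT male 1 (1.14, adjusted p = 0.005), and was at 0.13 without STAT males 2 and 3 (adjusted p = 0.93).

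The other genes of the pathway were counted in 7 lists holding 96 entries, of which 82 were measured. For PAT averaged over the sexes, 6.38% of all genes were called lower and 4.61% higher, with a median difference of -0.005. These shares stand beside the counts of every list. In that comparison, 7 of 24 measured genes of nucleic acid sensing and relay were lower and 2 higher, with a median difference of -0.017. Among them Ddx60, a helicase linked to RIG-I signalling, fell by 1.09 ± 0.20 on the log2 scale (adjusted p = 0.0014), and Rnf135, a ubiquitin ligase that activates RIG-I, fell by 0.44 ± 0.09 (adjusted p = 0.0045). Tbk1, the kinase that activates the interferon regulatory factors, fell by 0.35 ± 0.08 (adjusted p = 0.0073), and Myd88, an adaptor of Toll-like receptors, by 0.29 ± 0.07 (adjusted p = 0.015). The 2 higher genes, named after their values were seen, were Cgas, at 0.35 ± 0.09 (adjusted p = 0.017), and Ddx3x, at 0.28 ± 0.07 (adjusted p = 0.017). Mavs, the adaptor of the sensors, was at 0.18 (adjusted p = 0.2).

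In the TRIM family, 5 of 14 measured genes other than the Trim30 pair were lower and 1 higher, Trim8, which is also named after its value was seen. Trim34a fell by 0.82 ± 0.10 (adjusted p = 2.1e-05), Trim5 by 0.39 ± 0.08 (adjusted p = 0.0026), Trim12c by 0.57 ± 0.11 (adjusted p = 0.0026) and Trim21, a cytosolic antibody receptor, by 0.38 ± 0.08 (adjusted p = 0.0028). Trim12c was dim, with group means from 4.52 in PAT males to 5.19 in control males. None of the 5 other measured IRF genes and none of the 5 other measured STAT genes was called. Irf3 was at 0.04 (adjusted p = 0.76) and Irf8 at -0.16 (adjusted p = 0.27), with -0.40 in males (adjusted p = 0.018). Of 9 receptor and kinase genes 2 were lower, Jak2 by 0.31 ± 0.08 (adjusted p = 0.014) and Ifngr2, a chain of the interferon gamma receptor, by 0.32 ± 0.09 (adjusted p = 0.032). Ifnar1, a chain of the type I interferon receptor, was at -0.03 (adjusted p = 0.88).

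Of 16 measured brakes on the pathway, 2 were higher and 1 lower, against 4.61% and 6.38% of all genes. Ptpn2, a phosphatase of the JAK-STAT pathway, rose by 0.27 ± 0.07 (adjusted p = 0.016), Socs1, an inhibitor of it, by 0.30 ± 0.09 (adjusted p = 0.042), and Nlrx1 fell by 0.43 ± 0.12 (adjusted p = 0.023). Socs1 was at 0.64 ± 0.11 in males (adjusted p = 0.0015) and -0.05 in females. It was dim, with group means from 4.67 in STAT males to 5.51 in PAT males. None of the 9 measured interferon genes was called, and their mean log2 levels, from 3.62 to 5.66, were dim. Usp18 was at -0.29 (adjusted p = 0.53). In STAT averaged over the sexes no gene of the 7 lists was called.

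**Figure D4:**
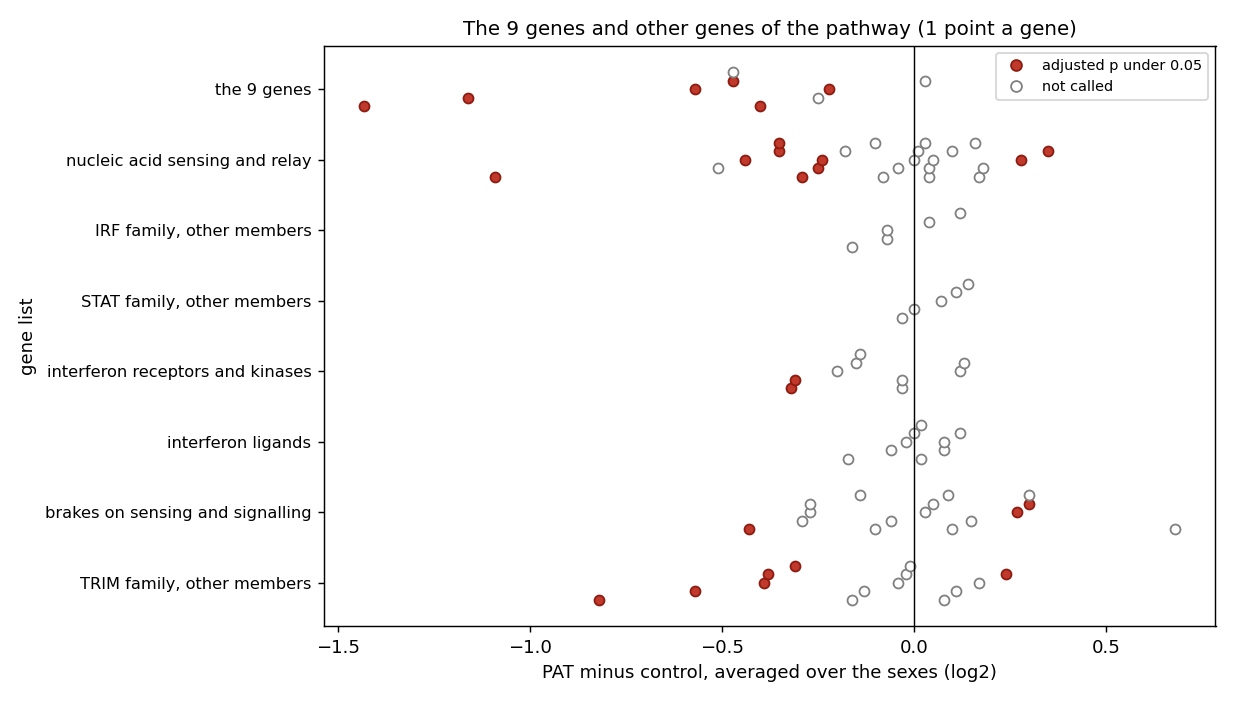
Log2 difference, PAT minus control averaged over the sexes, for the 9 genes and the measured genes of the 7 pathway lists, with 1 point per gene and called genes filled. Ddx60, at -1.09, lies lowest among the other genes, and no interferon gene is called.

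Likeness to the members was ranked only among other genes with a mean log2 level of at least 6. Across the 22 arrays the genes most like the mean of the 9 members were Parp9 (r = 0.93), Ddx60 (0.91), Ifi35 (0.89), Isx (0.89) and Dtx3l (0.89). With each group's mean subtracted they were Hagh (0.88), Apoc2 (0.87), Parp9 (0.86), Isx (0.85) and Rab17 (0.84). The arrays share treatment groups and tissue makeup, so these correlations are a description. Singly, Irf1 was most like Parp14 (r = 0.91), Irf7 most like Pdlim2 (0.92) and Trim30d most like Laptm4b (0.93). Among the members, the 28 pairs without Trim30a had correlations from 0.35 to 0.92, and the 8 pairs with Trim30a from -0.05 to 0.24. With group means subtracted, the 28 pairs ran from 0.09 to 0.79 and the 8 pairs with Trim30a from -0.13 to 0.58, the highest being those with Irf9 (0.58), Ddx58 (0.4) and Dhx58 (0.31).

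Of the markers of T cells and intraepithelial lymphocytes, only granzymes were called in PAT. Of 7 markers 6 were measured, and 2 were lower averaged over the sexes, Gzma by 1.58 ± 0.24 (adjusted p = 0.00033) and Gzmb by 0.90 ± 0.18 (adjusted p = 0.0029), both encoding granzymes of cytotoxic cells. Cd3e, which defines T cells, was at 0.01 ± 0.06 (adjusted p = 0.96). Itgae was at 0.05, Cd8a at -0.02 and Cd3g at -0.28 (adjusted p = 0.38). Cd8a and Cd3g were dim, at mean log2 levels of 5.73 and 5.35, and Cd3e was at 6.40. The summed log2 level of the 6 was 8.32 to 8.89 in PAT females, 8.85 to 9.08 in STAT females and 8.90 to 9.38 in control females. In males it was 8.44 to 8.73 in PAT, 8.36 to 9.30 in STAT and 9.06 to 9.45 in controls. Endothelial markers moved the other way: of 3, Kdr was higher by 0.42 ± 0.11 (adjusted p = 0.015), with Pecam1 at 0.33 (adjusted p = 0.11) and Cdh5 at 0.29 (adjusted p = 0.089). Their summed log2 level was 8.4 to 9.06 in PAT females, 8.01 to 8.54 in STAT females and 7.92 to 8.19 in control females, and 8.12 to 8.62 in PAT males, 8.23 to 8.55 in STAT males and 7.95 to 8.4 in control males. Of 3 plasma cell markers Sdc1, which epithelium also expresses, was higher by 0.32 ± 0.10 (adjusted p = 0.033), with Jchain at 0 and Mzb1 at 0.07. Their summed level was 12.9 to 13.11 in PAT females, 12.69 to 12.87 in STAT females and 12.32 to 12.82 in control females, and 12.72 to 13.31 in PAT males, 13.1 to 13.32 in STAT males and 13.02 to 13.3 in control males. Of the 7 enterocyte markers only Fabp6, the ileal bile acid-binding protein, was called, higher by 0.21 ± 0.07 (adjusted p = 0.049). Apoa1 was at -0.22, Alpi at -0.11, Epcam at -0.09, Vil1 at -0.02, Slc10a2 at -0.01 and Cdx2 at 0. The summed level of the 7 was 16.17 to 16.38 in PAT females, 16.15 to 16.36 in STAT females and 16.36 to 16.4 in control females. In males it was 16.11 to 16.46 in PAT, 15.8 to 16.27 in STAT and 16.2 to 16.4 in controls. The part of these markers in the fall of the members was not tested. No macrophage, conventional dendritic cell or plasmacytoid dendritic cell marker was called.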

How the data were processed

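The authors' deposited values are log2 expression levels per probe set, and per the submitters' processing notes they were made with affy and RMA, with no version given in the sources used here. RMA subtracts background, brings arrays to a common distribution and sums up each probe set, and it pulls dim values together. Of 45101 probe sets, 34945 had exactly 1 symbol, and the brightest per gene gave 18193 genes. The 6 group means were fitted jointly over the 22 arrays with limma 3.58.1 in R 4.3.3 (16 residual degrees of freedom), two-sided, with Benjamini-Hochberg adjustment over all genes, and calls needed an adjusted p under 0.05. The fit was tested on simulated data. No array pair held identical values. The number of arrays limits the precision. Replicates were numbered in accession order, and no numbers pair the samples. The members and lists were chosen with earlier results of these data known. Named were all members, up to 4 called genes of smallest p per list and Mavs, Tbk1, Irf3, Irf8, Ifnar1, Usp18 and Socs1, and the genes most like the members. Alternatives changed the probe set choice, a filter on means under 6, normalization, the groups fitted, a Gapdh covariate, array weights and the arrays included.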

Additional observations from a re-analysis of the deposited data

Results flagged for a closer look

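Irf1 in control males had 1 array apart from the others. Control male 2 was at a log2 level of 11.11, against 10.68 for the next highest control male, and the gap was 0.72 of the whole range of the group. Chance sets apart about 1 in 20 groups, and 18 groups were examined.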

How the results depend on the processing

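No called difference of a member changed sign under any alternative, while 64 recomputed differences that were uncalled in both fits did. The count of 6 members in PAT averaged over the sexes and of 4 in PAT males stayed within 1.5 times under every alternative. In PAT females the count of 4 ranged from 1 to 3 with 1 array left out. STAT counts of 0, averaged and in males, became 5 with array weights and 0 to 3 with 1 array left out. PAT minus STAT in females, 1 called, became 0 with the mean of probe sets, with every probe set tested and with the Gapdh covariate, 3 with array weights, and 0 with any 1 array left out. In males, 1 called, became 2 with genes of mean at least 6, repeated quantile normalization and array weights, 0 with only the groups compared or without STAT males 2 and 3, and 0 to 2 with 1 array left out. The cause was not tested. Array weights called 2288 genes in the averaged STAT comparison, where the equal-weight fit called 0 with 2391 at an unadjusted p under 0.05. No paired analysis was possible because the labels share no replicate numbers.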
